A study of Mus musculus with 20 samples.

Results

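Hearts with AL amyloid deposits were compared with hearts of mice that carried the same human light chain gene but had no deposits. Of the 20 mice of the series, 11 entered this comparison, 7 AL mice (AL1 to AL7) and 4 LS mice (LS1 to LS4), chosen by group and by the first of 2 sequencing runs, with no measured value used. All of them were λS-DH mice, in which the λS light chain gene of a patient with AL amyloidosis replaces the mouse joining segments at the Ig kappa locus. They are homozygous for this insertion and for the DH-LMP2A allele, which lets plasma cells form without Ig heavy chains, so that the light chain circulates free. The line was made in 129 embryonic stem cells injected into C57BL/6 blastocysts and passed through a CMV-Cre deleter strain. AL mice had been induced by an intravenous injection of the recombinant variable domain of the same light chain, as sonicated fibrils or in soluble form, and were positive for amyloid. LS mice were neither induced nor amyloid positive, so the injection and the deposits cannot be told apart in this comparison. Which form each AL mouse received, the time since its injection and the ages of the LS mice are not given in the sources used here, which describe induction in mice a few months to a year old. The 4 DH control mice of the first run (Ctrl1 to Ctrl4), which carry DH-LMP2A without the human gene, are shown beside the AL and LS values, and 5 mice of the second run (AL8, AL9 and Ctrl5 to Ctrl7) give values from hearts that the comparison did not use.

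In AL amyloidosis, a plasma cell clone secretes an immunoglobulin light chain that misfolds and is laid down as fibrils between the cells of an organ. In the heart the fibrils stiffen the wall, and the soluble light chain has been proposed to harm cardiomyocytes as well. Type I interferon signalling, the macrophage genes induced by ingested material, matrix proteins and natriuretic peptides each report on a different response of the tissue, and they are described in turn.

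The heart apex was sequenced as bulk polyadenylated RNA, so fewer cells of a type and less RNA per cell cannot be told apart. Total counts lay between 46169142 and 62668146 in AL mice and between 46811921 and 60152320 in LS mice, and a floor of 3 counts corresponds to 0.0479 to 0.065 CPM (counts scaled to a library total of 1e6) in these libraries, for counting error only. Cardiomyocyte genes summed to 65900 to 80400 CPM in AL and 85900 to 96800 CPM in LS mice, and none of the 12 was at 0. Xist and Y-linked genes gave AL2, AL3, AL4, LS2 and LS3 a female-type pattern and the other 6 mice a male-type pattern. LS3 also had 127 counts of the Y-linked gene Ddx3y, and LS1, male by those genes, 269 counts of Xist. Mouse Igkc, at the targeted locus, had 0 to 6 counts in each of the 11 mice. LS1 and LS3 stood apart by liver transcripts, with 114 and 93.6 CPM of the albumin gene Alb against 2.96 and 8.77 CPM in LS2 and LS4. AL mice had 0.0928 to 21.7 CPM of Alb. Counts of calls without LS1 and LS3, which leaves 2 LS mice, are therefore given below.

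Of 13987 genes tested, 1553 (11.1%) were called different between AL and LS hearts, at a Benjamini-Hochberg adjusted p (FDR) under 0.05 in edgeR's quasi-likelihood test and an absolute log2 fold change (log2FC, AL minus LS) of at least 0.58. Higher expression in AL was called for 1141 genes (8.16% of those tested) and lower expression for 412 (2.95%). The CPM values of AL and LS mice did not overlap for 992 of the called genes, against 2957 (21.1%) of all genes tested. The median log2FC over all tested genes was 0.018. Without LS1 and LS3, 925 genes were called, and 750 of them were among the 1553. The median log2FC fell from 0.11 in the fifth of genes with the shortest transcripts to -0.12 in the fifth with the longest, and rose from -0.09 to 0.17 from the lowest to the highest GC content. With transcript length and GC content as offsets 1393 genes were called. LS mice differed from the Ctrl mice of their run in 3 of 14288 genes (0.021%), while 1173 genes had an unadjusted p under 0.05.

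**Figure D1:**
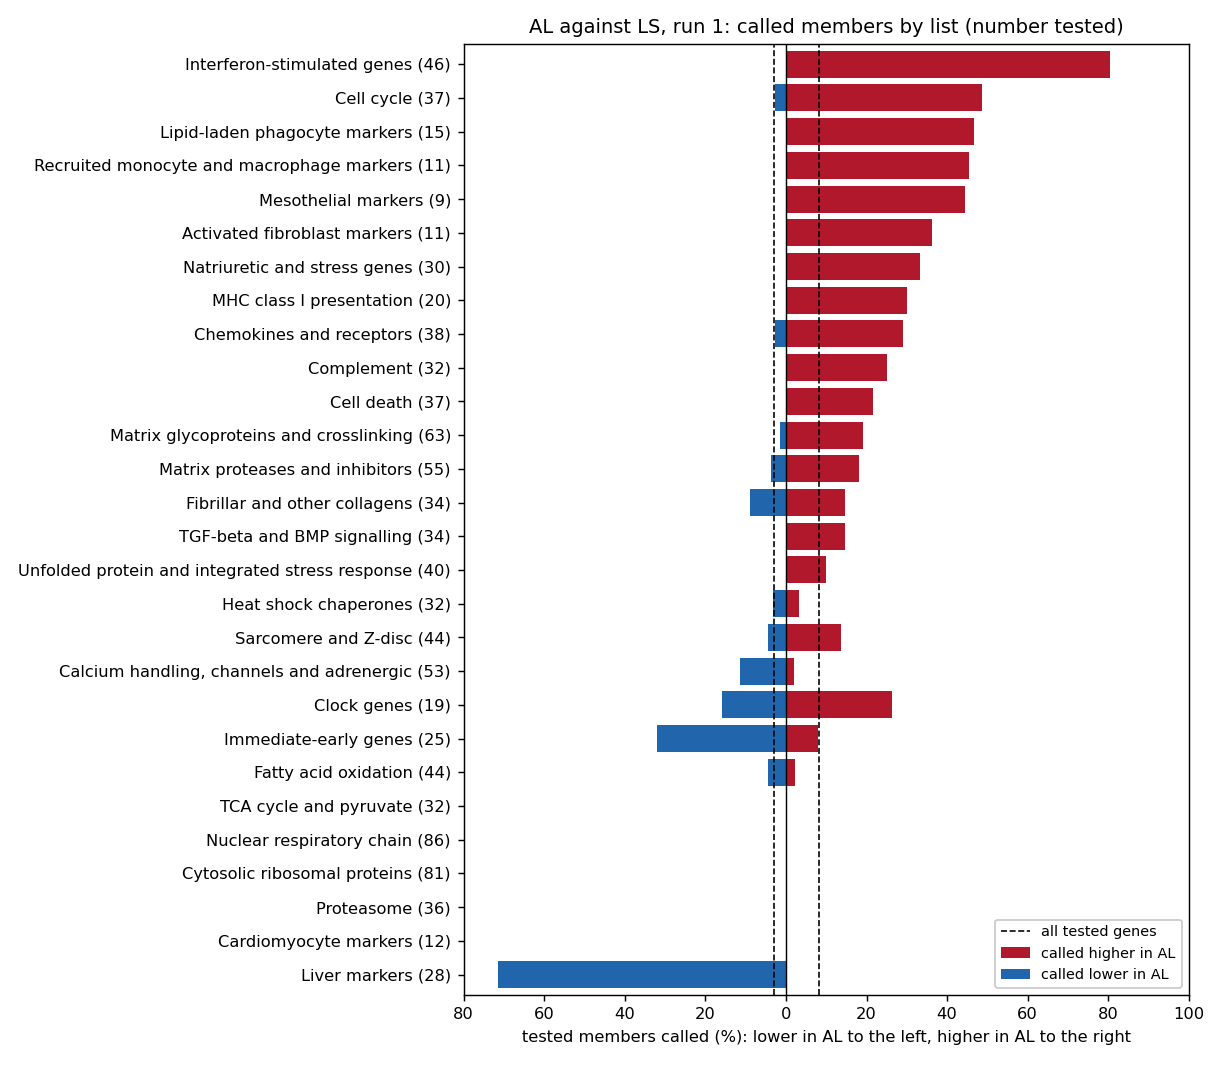
Percent of the tested members of each gene list that were called higher (to the right) or lower (to the left) in 7 AL than in 4 LS hearts of the first run. Dashed lines mark the share of all 13987 tested genes, 8.16% higher and 2.95% lower, and interferon-stimulated genes have the longest bar to the right of the lists drawn, 37 of 46.

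Interferon-stimulated genes were higher in AL hearts. Type I interferon acts through a cell surface receptor and switches on antiviral genes, many of which carry a repeated GAAA element before their start. Of 46 tested genes of this kind, 37 were called higher and 0 lower, with a median log2FC of 1.4, and 32 were called higher or lower without LS1 and LS3. Of 9 tested sensors and transcription factors 5 were called higher, and of 37 effectors 32.

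The called genes of this group were taken by falling log2FC, and those holding the element before their start are shown, down to Isg15. Irf7, Oas2, Ifi44 and Oasl1, with larger log2FC than Isg15, were passed over for lack of a match to print. The display was thus chosen by the element. The letters GAAA, then any 2 bases, then GAAA again were searched on both strands of RefSeq promoters (GRCm38.p6, from 250 bases before to 50 after the start), overlapping matches included. Only sequence before the start is printed, capitals mark the matches, and a match that reads TTTC, 2 bases and TTTC is the same element on the other strand.
Oas3, chr5:120777700-120777759, minus strand: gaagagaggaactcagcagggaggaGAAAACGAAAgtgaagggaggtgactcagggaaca
Oas1g, chr5:120887614-120887650, minus strand: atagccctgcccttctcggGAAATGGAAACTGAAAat
Oas1a, chr5:120907526-120907564, minus strand: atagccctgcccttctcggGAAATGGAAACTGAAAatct
Ifit3, chr19:34583382-34583441, plus strand: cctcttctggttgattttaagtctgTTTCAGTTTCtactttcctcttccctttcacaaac
Ifit3b, chr19:34607778-34607837, plus strand: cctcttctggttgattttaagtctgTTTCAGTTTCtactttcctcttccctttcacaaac
Isg15, chr4:156200850-156200909, minus strand: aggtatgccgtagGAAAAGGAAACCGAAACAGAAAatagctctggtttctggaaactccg
The printed stretches of Ifit3 and Ifit3b have the same letters, so reads of these neighbouring copies may also be hard to assign. Of 33 tested interferon-stimulated genes with a promoter in this table, 21 (63.6%) held the letters, against 1079 (3.99%) of 27025 promoters in all. Among all genes called higher it was 74 of 867 (8.54%), among those called lower 11 of 306 (3.59%), and among tested genes that were not called 335 of 9651 (3.47%). With the interferon list taken out, 57 of 840 genes called higher (6.79%) held them. A match of letters is a description of the promoter and does not show binding.

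Irf7, the factor that amplifies interferon production (ENSMUSG00000025498, chromosome 7, 141262706 to 141266481 on GRCm38), was at 5.14, 11.2, 8.52 and 6.45 CPM in LS1 to LS4. AL mice ranged from 22.3 to 74.6 CPM with a median of 52.7, so the groups did not overlap. The log2FC was 2.63 (SE 0.336, FDR = 0.000824 by the quasi-likelihood test). Ctrl mice of the same run reached from 5.63 to 26.1 CPM, which overlaps the lowest AL mouse.
Oas2, which makes the second messenger that activates RNase L, was at 5.62, 7.53, 8.11 and 7.07 CPM in LS mice and at 17.7 to 74.4 CPM (median 37.0) in AL mice, a log2FC of 2.48 (FDR = 0.00124 by the quasi-likelihood test). Its relatives Oas3 (log2FC 2.65), Oas1g (2.58), Oas1a (2.01) and Oasl1 (2.30) rose as well. Ifi44, another interferon-induced gene, stood at 2.01, 5.18, 4.86 and 3.0 CPM in LS and 11.2 to 31.6 CPM (median 22) in AL mice, a log2FC of 2.41. LS2 was the highest LS mouse for Irf7 and Ifi44, but lay below every AL mouse for both.
Ifit3, which blocks viral RNA translation with its partners, was at 4.55, 15.5, 8.66 and 6.10 CPM in LS and 29.8 to 56.2 CPM (median 37.6) in AL mice, a log2FC of 2.24 (FDR = 0.00106 by the quasi-likelihood test), and Ifit3b had a log2FC of 2.13. Isg15, a ubiquitin-like modifier, was at 2.28, 4.63, 3.62 and 2.61 CPM in LS and 7.32 to 16.6 CPM (median 13.5) in AL mice, a log2FC of 1.85. Gbp2b, a guanylate-binding protein gene, was among the 5 called rises of lowest FDR, with 20.3 to 32.9 CPM in AL against 8.13, 8.37, 5.94 and 4.47 CPM in LS mice and 0.0206 to 13.6 CPM in Ctrl mice of the first run. Its call was lost where other mice entered the fit, with an FDR of 0.0674 for all 15 mice of the first run, 0.0927 for all 20 with the run as a term and 0.111 with ComBat-seq.
The interferon regulatory factors Irf1 (log2FC 0.34) and Irf9 (0.54) were not called. Summed over the 48 genes of the list in the table, AL mice had 1020 to 1510 CPM, and LS1 to LS4 had 502, 1160, 690 and 526 CPM, so that LS2 lay within the AL range. Ctrl mice of the first run had 604 to 1220 CPM.

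**Figure D2:**
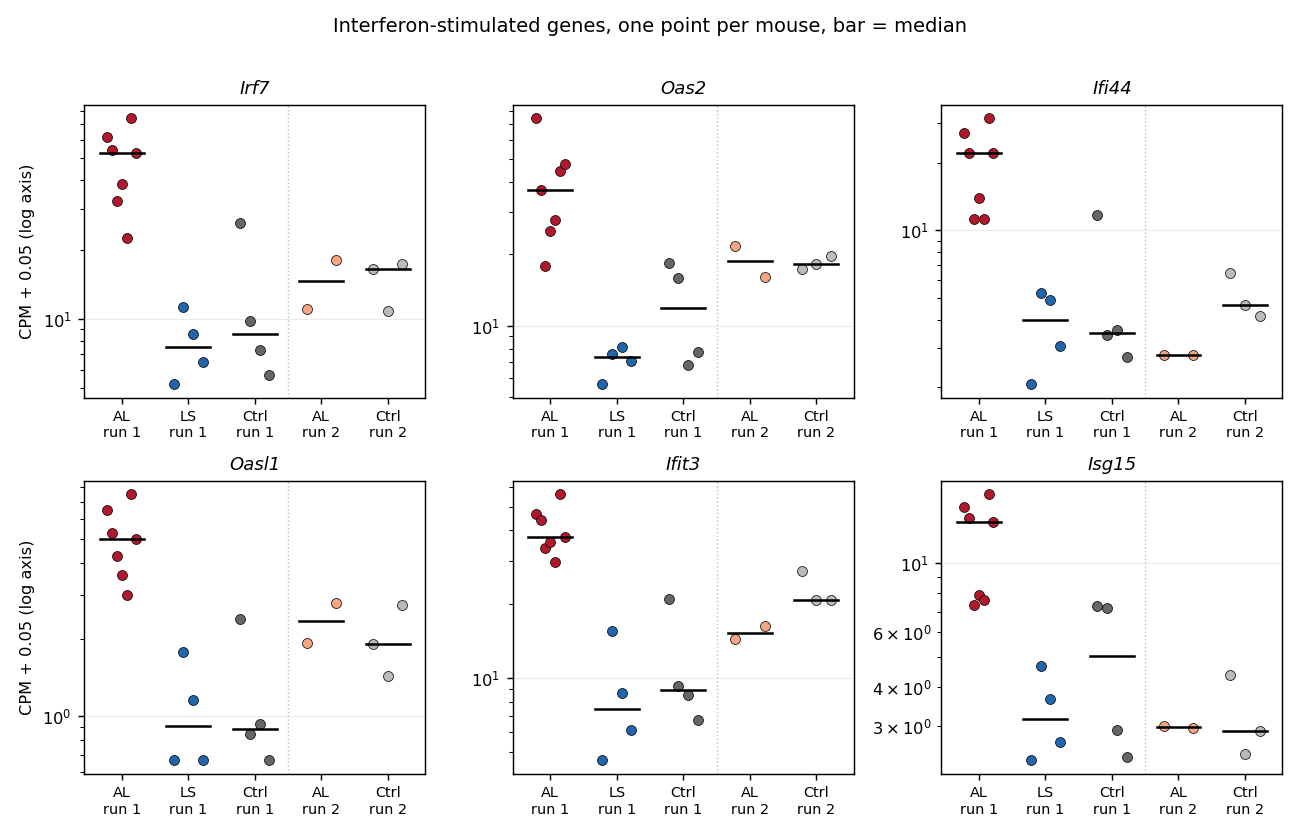
CPM + 0.05 (log axis) of 6 interferon-stimulated genes in each mouse, by group and run, with a bar at the group median. In the first run, AL mice lie above all 4 LS mice for each gene, and AL8 and AL9 of the second run lie lower, with Irf7 at 11 and 18 CPM.

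The second run did not show this rise. AL8 and AL9 had 656 and 612 CPM over the list, against 829 to 1120 CPM in the 3 Ctrl mice of their run. Of the 36 genes called higher in the first run with a value in the second, 12 had a log2FC above 0 for AL minus Ctrl there, and the median log2FC of all 45 members with a value was -0.40 (AL minus Ctrl, no test). Within the first run, AL minus Ctrl gave a median log2FC of 1.14, with 41 of 46 members above 0. That comparison shares its AL mice with the one against LS. The second run has fewer mice and shallower libraries, with 7867642 to 11794615 counts.

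Genes of antigen presentation by MHC class I, many of them interferon targets too, were called higher for 6 of 20 members. H2-Q6, a nonclassical heavy chain, was at 17.1 to 40.9 CPM (median 23.7) in AL and at 5.45, 12.6, 7.25 and 5.63 CPM in LS mice, a log2FC of 1.80. H2-Q7 had a log2FC of 1.66, and the immunoproteasome gene Psmb8 of 0.85 with an FDR of 0.0722 without LS1 and LS3. The number called was 13 without LS2 and 4 without LS1 and LS3, and H2-Q genes are near-identical copies whose reads are hard to divide. In the second run 0 of the 6 called genes were higher in AL. None of the 7 MHC class II genes was called at either sign by edgeR, and 0 of them had an FDR under 0.05.

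Genes of phagocytes that have taken up lipid or debris were called higher in part. Such cells switch on lysosomal, lectin and protease genes, and are seen around plaques and deposits in several tissues. Of 15 tested markers 7 were called higher and 0 lower, with a median log2FC of 1.27, and 7 were called without LS1 and LS3. The sum over the list, which is mostly Lpl, the lipoprotein lipase that cardiomyocytes also make (log2FC -0.03), was 6080 to 7520 CPM in AL and 6440 to 7500 CPM in LS mice. Mmp12, the macrophage elastase (ENSMUSG00000049723, chromosome 9, 7344381 to 7369499), was at 0.213, 0.148, 0.408 and 0.271 CPM in LS1 to LS4. In AL mice it was at 2.89 to 18.5 CPM with a median of 6.84. The groups were far apart, with a log2FC of 4.91 (SE 0.673, FDR = 0.00108 by the quasi-likelihood test), and AL8 and AL9 had 18.6 and 36.3 CPM. Lgals3, galectin-3, a lectin of activated macrophages (ENSMUSG00000050335, chromosome 14, 47367751 to 47386160), was at 2.30, 1.80, 2.08 and 2.44 CPM in LS and at 5.99 to 12.4 CPM (median 8.65) in AL mice. Its log2FC was 1.99 (SE 0.205, FDR = 0.000269 by the quasi-likelihood test), and the groups did not overlap.
Atp6v0d2, a subunit of the proton pump of lysosomes, was low in all hearts, with 0.22 to 1.03 CPM in AL and 0.0474, 0.0423, 0.123 and 0.0194 CPM in LS mice, so that 3 of the 4 LS values lie near or below the floor. Itgax, the integrin CD11c, had a log2FC of 1.74, Gpnmb, a lysosomal glycoprotein, of 1.77, Spp1, osteopontin, of 1.59 and Fabp5, a fatty acid carrier, of 0.62. Gpnmb overlapped between the groups, with 1.94 to 6.14 CPM in AL and up to 1.99 CPM in LS mice, and its FDR was 5.78e-05 to 0.0566 over 25 alternatives, 0.0566 with liver transcripts as a covariate.
Trem2, the lipid receptor of these cells, is split over 2 entries of the table, neither of which was called. Their sum was 2.83 to 4.25 CPM (median 3.57) in AL and 1.54, 0.909, 0.939 and 1.29 CPM in LS mice, with no overlap. All 5 called markers with a value in the second run lay above the Ctrl median there in AL8 and in AL9, and the median log2FC of the list in that run was 0.99.

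Of 12 general macrophage genes 2 were called higher and 0 lower, with a median log2FC of 0.17. An FDR under 0.05 was reached by 7, against 4377 of all 13987 genes tested. The calls were Fcgr1 (log2FC 0.82), a receptor for immunoglobulin G, and Ptprc (0.71), the leukocyte antigen CD45. Cd68, a lysosomal protein of all macrophages, had a log2FC of 0.57 (FDR = 0.0136), just under the limit of 0.58, and Adgre1, F4/80, of 0.15. Csf1r, the receptor for macrophage colony-stimulating factor, had a log2FC of -0.43. The 12 pan-macrophage markers summed to 332 to 520 CPM in AL and 312 to 384 CPM in LS mice, and the 10 markers of resident cardiac macrophages to 229 to 326 against 303 to 348 CPM. Of the resident markers Timd4 (log2FC -0.87), a receptor for dying cells, and Igf1 (-0.61), a growth factor, were called lower. Igf1 had a log2FC of -0.52 without AL7, which stood apart from the other AL mice, and Timd4 lost its call without any of AL2, AL4, AL5, AL6 or any LS mouse.

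Markers of monocytes recruited from blood were called higher for 5 of 11 members and lower for none, and 4 were called without LS1 and LS3. Their sum overlapped between the groups, at 110 to 183 CPM in AL and 101 to 140 CPM in LS mice. Ctrl mice of the first run had 134 to 164 CPM, within the AL range. The median log2FC of the list was 0.60 against LS and 0.35 for AL minus Ctrl in the first run. Ccr2, the receptor that draws monocytes into tissue, was at 1.04, 1.35, 2.31 and 1.68 CPM in LS and 3.89 to 7.44 CPM (median 5.98) in AL mice, a log2FC of 1.91 (FDR = 0.000844 by the quasi-likelihood test) with no overlap. Plac8, a gene of classical monocytes, had a log2FC of 2.34, Chil3, a chitinase-like protein, of 2.51 and Cd52, a surface glycoprotein of leukocytes, of 1.15. Chil3 was at 0.168 to 2.05 CPM in AL and 0.0408 to 0.296 CPM in LS mice, and its call was lost without any of AL4, AL5, AL7, LS1, LS3 or LS4. The list lost 3 of its 5 calls with liver transcripts as a covariate.
Among chemokines and their receptors, 11 of 38 were called higher and 1 lower, and 4 were called in all without LS1 and LS3. The B cell attractant Cxcl13 (log2FC 2.38) and the monocyte attractant Ccl8 (2.02) led the ligands, and both overlapped between the groups. Cxcl13 was at 0.0841 to 1.71 CPM in AL and 0.0204 to 0.317 CPM in LS mice, and lost its call without any of AL4 to AL7 or LS1, LS3 or LS4. Ccl8 was at 1.80 to 16 CPM in AL and 0.901 to 2.45 CPM in LS mice, and its FDR was 0.0563 without LS1. The 12 T cell markers summed to 3.72 to 9.15 CPM in AL and 2.34 to 5.12 CPM in LS mice. Of 10 tested T cell markers 0 were called, though 9 had a log2FC above 0 (median 0.81), and 3 were called with Xist as a covariate. Of 6 tested NK cell markers 0 were called, and 5 had a log2FC above 0 (median 0.69). Of 7 tested B cell markers 2 were called higher, the surface inhibitor Cd22 (log2FC 1.94) and the kinase Blk (1.58), and all 7 had a log2FC above 0 (median 0.86). The 8 B cell markers in the table summed to 1.47 to 5.85 CPM in AL and 1.41 to 1.82 CPM in LS mice, and neither call held without LS1 and LS3 (FDR = 0.103 and 0.14). Of 7 tested plasma cell and immunoglobulin genes 2 were called lower, Iglc1 and Jchain, and neither held without LS1 and LS3 (FDR = 0.271 and 0.0963).

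Complement, the cascade that tags particles for uptake, rose in part against LS, with 8 of 32 genes called higher and 0 lower and 8 called without LS1 and LS3. The list summed to 1590 to 2020 CPM in AL and 1350 to 1390 CPM in LS mice. Ctrl mice of the first run had 1360 to 1610 CPM, which overlaps the lowest AL mouse. The median log2FC of the list was 0.48 against LS and 0.18 for AL minus Ctrl in the first run. Cfb, factor B of the alternative pathway, was at 5.24, 4.95, 6.09 and 2.09 CPM in LS and 11.7 to 18.9 CPM (median 14.4) in AL mice, a log2FC of 1.78 (SE 0.245, FDR = 0.00114 by the quasi-likelihood test) with no overlap. C3, the central component, was at 229, 206, 215 and 232 CPM in LS and 269 to 735 CPM (median 392) in AL mice, a log2FC of 1.07. Its FDR was 0.055 without LS1 and LS3. C4b had a log2FC of 1.26, with 25.7 to 102 CPM in AL and 20.5 to 35.8 CPM in LS mice, and an FDR of 0.0957 without LS1 and LS3 and 0.061 with liver transcripts as a covariate. Of the 7 called genes with a value in the second run, 6 lay above every Ctrl mouse there in AL9 and 2 in AL8. Cd46, a membrane regulator, rose by 1.55 on the log2 scale in the first run.

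**Figure D3:**
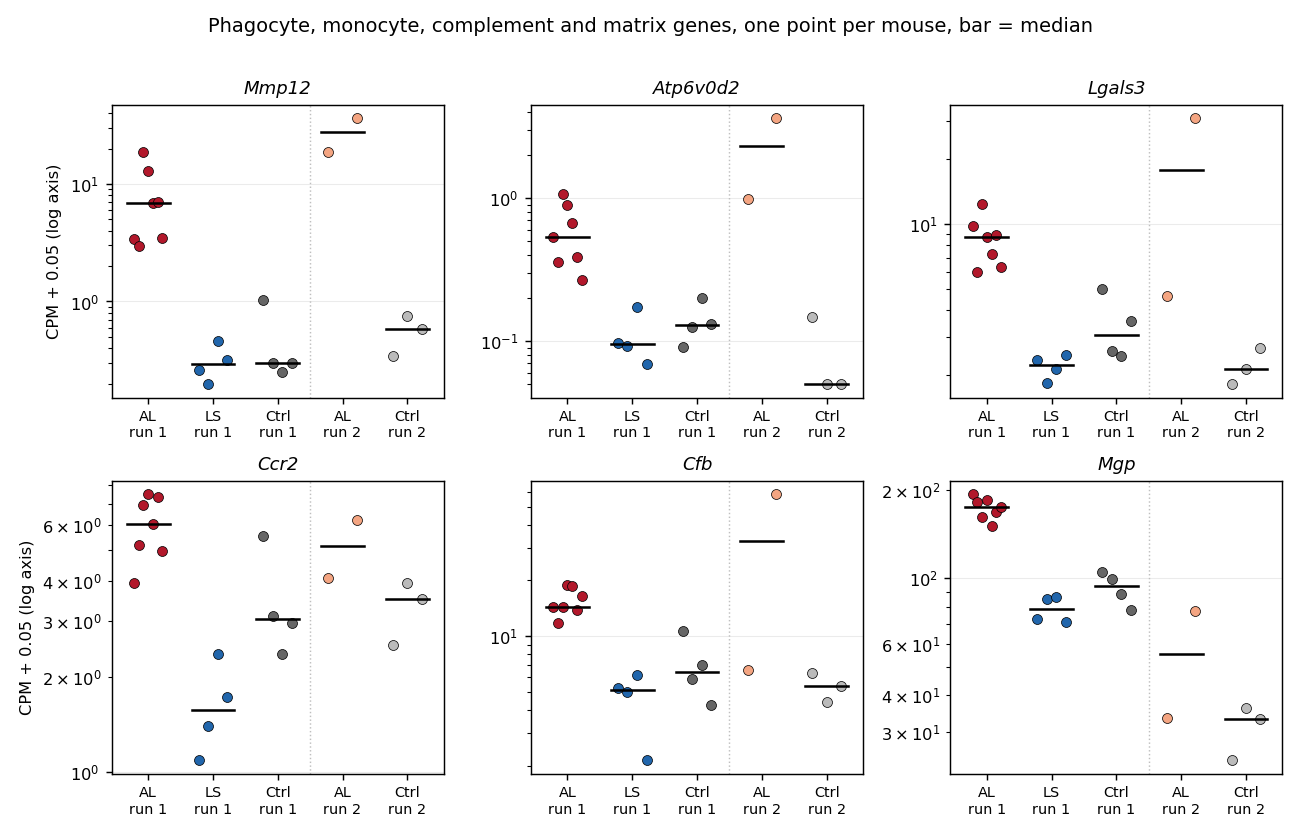
CPM + 0.05 (log axis) of Mmp12, Atp6v0d2, Lgals3, Ccr2, Cfb and Mgp in each mouse, by group and run, with a bar at the group median. AL and LS mice of the first run do not overlap for any of the 6 genes, and Mmp12 is at 2.89 to 18.5 CPM in AL against at most 0.408 CPM in LS mice.

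Matrix glycoproteins, which organise collagen and elastic fibres, were called higher for 12 of 63 genes and lower for 1, with a median log2FC of 0.26. The count was 11 without LS1 and LS3 and 21 with liver transcripts as a covariate. Mgp, matrix Gla protein, an inhibitor of calcification (ENSMUSG00000030218, chromosome 6, 136872435 to 136875823), had the lowest FDR of all rises. It was at 72.4, 84.9, 86.0 and 71.1 CPM in LS and 150 to 193 CPM (median 175) in AL mice, a log2FC of 1.16 (SE 0.084, FDR = 2.9e-05 by the quasi-likelihood test). Bgn, the small proteoglycan biglycan, was at 204, 214, 213 and 198 CPM in LS and 348 to 465 CPM (median 367) in AL mice, a log2FC of 0.95 (SE 0.089, FDR = 0.000179 by the quasi-likelihood test). Both genes had a narrow range within each group and did not overlap.
Comp, cartilage oligomeric matrix protein, had a log2FC of 1.67, Ltbp2, which binds elastic microfibrils, of 1.29, Cilp of 0.94, Mfap4 of 0.94 and Postn, periostin, of 0.78. Fbn1, fibrillin-1, moved the other way, from 68.8, 94.8, 107 and 91.3 CPM in LS to 35.3 to 58.7 CPM in AL mice, a log2FC of -0.95 (FDR = 0.00246 by the quasi-likelihood test). In the second run the 12 genes called higher had a log2FC above 0 for AL minus Ctrl, but this rests on AL9, in which 12 of 12 lay above every Ctrl mouse of that run. In AL8 that held for 1 of 12, and 2 lay above the Ctrl median. Summed over the list, AL8 had 2720 CPM, below the 3180 to 3960 CPM of Ctrl5 to Ctrl7, and AL9 had 7320 CPM. Fbn1 had a log2FC of 1.66 there, with 28.5 CPM in AL8 and 227 CPM in AL9. Comp, Bgn, Mgp and Mfap4 held their calls without LS1 and LS3, and Ltbp2 (FDR = 0.0512), Cilp (0.0609) and Postn (0.076) did not.
Collagens were called in both directions. Of 34 tested, 5 were called higher and 3 lower, with a median log2FC of -0.07, and 2 were called without LS1 and LS3. Col1a1, the main fibrillar collagen, was at 52.5 to 79.7 CPM in AL and 57.4, 47.7, 71.5 and 56.8 CPM in LS mice, a log2FC of 0.13 (FDR = 0.447), and Col3a1 had a log2FC of -0.31. The collagens called higher were minor ones, led by Col7a1 (log2FC 1.39), which overlapped between the groups and lost its call without LS1, LS2 or LS4. The median log2FC of 31 collagens in the second run was 1.32, with 26 above 0. There the list summed to 860 CPM in AL8 and 7260 CPM in AL9, against 968 to 1290 CPM in Ctrl mice, so that the AL mice lay on opposite sides of them.
Matrix proteases and their inhibitors were called higher for 10 of 55 genes and lower for 2, and 5 were called without LS1 and LS3. After Mmp12, Adam8, a sheddase of leukocytes, had the next largest rise, from 0.853, 0.465, 0.551 and 0.407 CPM in LS to 1.51 to 3.49 CPM in AL mice, a log2FC of 2.17 (FDR = 0.000678 by the quasi-likelihood test). Ctrl mice of the first run had 0.752 to 3.53 CPM of Adam8, across the AL range. Timp1, an inhibitor of metalloproteinases, rose by 1.34 on the log2 scale, with 2.76 to 8.87 CPM in AL and 1.49 to 2.49 CPM in LS mice. Timp1 lost its call without LS1 and LS3 (FDR = 0.104), with the run as a term in all 20 mice (0.108) and with ComBat-seq (0.119). In the second run all 10 genes called higher with a value had a log2FC above 0. Of these, 9 lay above every Ctrl mouse in AL9 and 6 in AL8, while the list summed to 1190 CPM in AL8, 2010 CPM in AL9 and 1260 to 1330 CPM in Ctrl mice.

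Natriuretic and stress genes of the heart were called higher for 10 of 30 tested and lower for 0, with a median log2FC of 0.27, and 4 were called without LS1 and LS3. By role, 9 of 23 genes of wall stress and the fetal programme and 1 of 5 receptor and processing genes were called. Of the 10, Lgals3, Gpnmb and Spp1 were counted above among phagocyte markers, and Timp1, Ltbp2 and Postn among matrix genes. Nmrk2, a kinase of NAD synthesis induced in failing hearts, was at 7.23, 3.87, 6.78 and 2.77 CPM in LS and 9.32 to 57.5 CPM (median 11.2) in AL mice, a log2FC of 2.09 (SE 0.564, FDR = 0.0162 by the quasi-likelihood test). The groups did not overlap, though the median AL mouse was close to the highest LS mouse, and the FDR was 0.0515 without LS4 and 0.0535 without LS1 and LS3. Acta1, skeletal actin of the fetal gene programme, was at 176, 90.0, 168 and 181 CPM in LS and 184 to 1038 CPM (median 372) in AL mice, a log2FC of 1.70 (FDR = 0.0185 by the quasi-likelihood test). Its FDR was 0.0568 without LS2 and 0.0942 without LS1 and LS3, and its log2FC in the second run was -1.03.
The natriuretic peptides, secreted by stretched cardiomyocytes, were not called. Nppa was at 211, 273, 395 and 87.5 CPM in LS and 251 to 835 CPM (median 442) in AL mice, a log2FC of 1.09 (FDR = 0.0628), and Ctrl mice of the first run had 44.3 to 138 CPM. LS1, LS2 and LS3 were thus above every Ctrl mouse. The log2FC of LS minus Ctrl for Nppa was 1.48, without a call. Nppb had a log2FC of 0.18 (FDR = 0.759), with 163, 234, 242 and 142 CPM in LS and 67.7 to 403 CPM in AL mice. Myh7, the slow myosin heavy chain, had a log2FC of 0.16.

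Cell cycle genes were called higher for 18 of 37 tested and lower for 1, with a median log2FC of 0.66, and 8 were called without LS1 and LS3. Mki67, the proliferation marker Ki-67, was at 5.62, 5.26, 5.02 and 4.78 CPM in LS and 7.76 to 14.0 CPM (median 10.9) in AL mice, a log2FC of 1.06 (SE 0.158, FDR = 0.00155 by the quasi-likelihood test) with no overlap. Birc5, survivin, had a log2FC of 1.64, with 0.338 to 0.474 CPM in LS and 0.791 to 1.73 CPM in AL mice. Ccna2, cyclin A2, had a log2FC of 1.46 and Top2a, a topoisomerase of dividing cells, of 0.88. The exception was Cenpf, a kinetochore protein gene, which fell by 1.38 on the log2 scale, from 58.5, 61.3, 58.0 and 87.1 CPM in LS to 7.68 to 43.7 CPM in AL mice. The FDR of Cenpf was 0.0531 without LS4, the highest LS mouse, and 0.0611 without LS1 and LS3.
Ctrl mice of the first run had 5.08 to 14.3 CPM of Mki67, and the median log2FC of the list for AL minus Ctrl was 0.29. In the second run, 14 of the 14 genes called higher lay above every Ctrl mouse in AL9 and 8 in AL8, and Cenpf was below every Ctrl mouse in both.

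Genes of the cardiomyocyte's electrical and adrenergic apparatus were called lower for 6 of 53 and higher for 1, with a median log2FC of -0.25, and 6 were called without LS1 and LS3. Of the 12 adrenergic genes 4 were called lower, with a median log2FC of -0.20. Of 18 calcium handling genes 0 were called by edgeR, but their median log2FC was -0.33 and 2 had a log2FC above 0. Of the 18, 11 had an FDR under 0.05, against 4377 of all 13987 genes tested. The groups did not overlap for 8 of them, against 21.1% of all genes tested. Adra1a, the alpha-1A adrenergic receptor (ENSMUSG00000045875, chromosome 14, 66635251 to 66771168), was at 30.6, 26.3, 29.7 and 30.7 CPM in LS and 8.60 to 15.9 CPM (median 13.9) in AL mice, a log2FC of -1.13 (SE 0.143, FDR = 0.000807 by the quasi-likelihood test). The groups did not overlap. Adra1b, the other alpha-1 receptor gene called, had a log2FC of -0.71 and an FDR of 0.0789 without LS1 and LS3. Pde4d (-0.77) and Pde3a (-0.65), phosphodiesterases that break down cyclic AMP, were called too. Kcnd2 (-0.82), a channel of the transient outward current, and Kcnj5 (-0.64), an acetylcholine-gated channel, were the channels called lower.
Atp2a2, the calcium pump SERCA2a, was at 11400, 14000, 13400 and 12900 CPM in LS and 6795 to 11080 CPM in AL mice, a log2FC of -0.50 (FDR = 0.00731) that missed the limit of 0.58 although the groups did not overlap. Ryr2, the ryanodine receptor, had a log2FC of -0.36 (FDR = 0.111). Of the 6 genes called lower, 4 in AL8 and 5 in AL9 lay below every Ctrl mouse of the second run. Over all 53 genes of the list, the median log2FC of AL minus Ctrl there was 0.07, with 28 above 0. The lower median of the list in the first run was thus not seen in the second.

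Of 44 tested genes of fatty acid oxidation 2 were called lower and 1 higher, a share of 6.82% against 11.1% of all tested genes. Without LS1 and LS3, 1 was called. The genes called lower were Ppara and Ppargc1a, 2 of 15 regulators, and the gene called higher was Fabp4 (log2FC 0.66). Ppara, the nuclear receptor that drives the pathway, was at 57.3, 63.2, 57.0 and 44.4 CPM in LS and 5.21 to 28.5 CPM (median 24.4) in AL mice, a log2FC of -1.34 (FDR = 0.00924 by the quasi-likelihood test). AL1 was the lowest by far, and without LS1 and LS3 the log2FC was -1.31 with an FDR of 0.062. Ppargc1a, its coactivator, was at 199, 244, 196 and 152 CPM in LS and 84.3 to 144 CPM in AL mice, a log2FC of -0.88. Neither gene overlapped between the groups. Of 16 beta-oxidation enzymes 0 were called by edgeR, with a median log2FC of -0.20. The groups did not overlap for 7 of them, against 21.1% of all genes tested. An FDR under 0.05 was reached by 8, against 4377 of all 13987 tested.

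Large parts of the cell's machinery held no call. None of 86 tested nuclear genes of the respiratory chain (median log2FC -0.01), of 81 cytosolic ribosomal protein genes (0.10), of 36 proteasome genes (-0.02), of 32 genes of the TCA cycle (-0.22) or of 12 cardiomyocyte markers (-0.16) met the limits in edgeR's test. Of the TCA cycle genes, though, 18 had an FDR under 0.05, against 4377 of all 13987 tested, and 3 had a log2FC above 0. The groups did not overlap for 14 TCA cycle genes, against 21.1% of all genes tested. Summed, they were at 17600 to 20400 CPM in AL and 21800 to 24000 CPM in LS mice. Their median log2FC for AL minus Ctrl was -0.19 in the first run and -0.16 in the second. Of the cardiomyocyte markers, 5 had an FDR under 0.05 and 4 did not overlap. With liver transcripts as a covariate, 2 respiratory chain genes, 3 TCA cycle genes and 3 cardiomyocyte markers were called. Of the 13 mitochondrially encoded genes 2 were called lower, with mt-Nd5, a subunit of complex I, at 9351 to 20550 CPM in AL and 29000, 26500, 25000 and 29700 CPM in LS mice, a log2FC of -0.86 (FDR = 0.00277 by the quasi-likelihood test). The share of counts from mitochondrially encoded genes was 31.8 ± 1.5% in AL (SD, n = 7) and 34.4 ± 2.41% in LS mice (n = 4), a difference of -2.65 percentage points (two-sided exact permutation test over 330 splits, p = 0.0545, smallest p possible 0.00606).
Sarcomere genes were called higher for 6 and lower for 2 of 44, and apart from Acta1 the rises were led by the atrial myosin light chains Myl7 and Myl4, whose FDR was 0.0818 and 0.0876 without LS1 and LS3. Markers of atrial tissue summed to 288 to 876 CPM in AL and 121 to 431 CPM in LS mice, with 3 of 6 tested called higher. The sums of LS1 to LS4, at 243, 305, 431 and 121 CPM, lay little above the Nppa values of those mice given before. The part of atrial tissue in these rises was not tested. The genes called lower were Nebl, nebulette (log2FC -0.82), and Myom2, a protein of the M-band (-0.80), with an FDR for Myom2 of 0.0808 without LS1 and LS3.

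Genes of cellular stress and of cell death were described apart. In the unfolded protein and integrated stress response 4 of 40 genes (10%) were called higher and 0 lower, with a median log2FC of 0.03. This share is near the 8.16% of all tested genes called higher. All 4 (Mthfd2, Trib3, Ddit3 and Atf5) lie downstream of the stress factor ATF4, and 0 of 22 ER chaperones and sensors were called. Ddit3, the factor CHOP, was at 8.39, 9.47, 10.6 and 12.5 CPM in LS and 14.2 to 19.9 CPM (median 17.7) in AL mice, a log2FC of 0.76 (FDR = 0.00215 by the quasi-likelihood test), with no overlap. Hspa5, the main ER chaperone, was at 453 to 847 CPM in AL and 766 to 1140 CPM in LS mice, a log2FC of -0.47. Without LS1 and LS3, 1 member of the list was called. Among cell death genes 8 of 37 (21.6%) were called higher and 0 lower, with a median log2FC of 0.26, and 4 were called without LS1 and LS3. The calls were 6 of the 13 genes of necroptosis and pyroptosis, the lytic forms (median log2FC 0.59), and 2 of the 24 of apoptosis (0.06). Casp4, the caspase that senses lipopolysaccharide, was at 1.85, 2.39, 2.29 and 2.58 CPM in LS and 3.84 to 5.72 CPM in AL mice, a log2FC of 1.00, and Mlkl, the pore protein of necroptosis, had a log2FC of 0.84, and both lost the call with ComBat-seq (FDR = 0.0869 and 0.159). In the second run their log2FC was 0.11 and -0.65. Of the 8 called cell death genes 6 had a log2FC above 0 there, and the list had a median of 0.31. By mouse, 3 of the 8 lay above the Ctrl median in AL8 and 5 in AL9. Of 32 heat shock chaperones 1 was called higher and 1 lower. Of 40 genes of the NRF2 and antioxidant response 4 (10%) were called higher, also near the share of all genes, and 1 lower.

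Immediate-early genes, the transcription factors switched on within minutes of a stimulus, were called lower for 8 of 25 and higher for 2, but the falls rest on LS4. Fos was at 5.62, 2.69, 3.80 and 88.0 CPM in LS1 to LS4 and at 1.04 to 4.05 CPM in AL mice, and Egr1 at 5.21, 3.87, 8.54 and 207 CPM in LS and 2.47 to 11.7 CPM in AL mice. Without LS4, 1 member of the list was called. Fos then had a log2FC of -0.87 in place of -3.49, and Egr1 of 0.33 in place of -2.92. Neither was lower in AL8 and AL9 than in Ctrl.
Clock genes were called higher for 5 of 19 and lower for 3. The morning activators Arntl (-1.37), Npas2 (-1.24) and Clock (-0.68) were lower, and the repressors Per3 (1.21), Per2 (1.20) and Cry1 (0.76) and the output gene Dbp (0.74) were higher. Arntl was at 5.31, 7.44, 10.2 and 3.54 CPM in LS and 1.28 to 3.92 CPM in AL mice. Per2 was at 19.4, 12.4, 7.66 and 16.1 CPM in LS and 20.3 to 49.4 CPM in AL mice. The time of day at which each heart was taken is not given in the sources used here. In the second run 0 of the 5 genes called higher lay above the Ctrl median in AL8 or in AL9. Without LS1 and LS3 the FDR of Arntl was 0.0737 and that of Dbp 0.248.

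Markers of cells beyond the myocardium moved as well. Of 28 tested liver genes 20 were called lower and 0 higher, with a median log2FC of -3.15. The 30 liver markers in the table summed to 54.4 to 141 CPM in AL and 62.4 to 404 CPM in LS mice, and none was at 0 in every mouse of a group. With the mean of these genes as a covariate 0 were called, which follows largely from fitting them on their own mean. Liver transcripts took 0.00904 ± 0.00365% of counts in AL (SD, n = 7) and 0.021 ± 0.0162% in LS mice (n = 4, two-sided exact permutation test, p = 0.152). Mesothelial markers, from the lining of the heart's surface, were called higher for 4 of 9 and summed to 19.3 to 106 CPM in AL and 8.99 to 33.5 CPM in LS mice. Upk1b, a uroplakin of the mesothelium, was at 1.08 to 6.72 CPM in AL and 1.04, 0.148, 1.37 and 0.949 CPM in LS mice, a log2FC of 2.30. AL8 and AL9 had 66.9 and 334 CPM of the mesothelial markers. The part of either tissue in the results above was not tested beyond the fits named.
Of 30 genes whose proteins are found in amyloid or bind it, 4 were called higher, namely Saa3, Ager, Bgn and Tyrobp, and 4 lower, namely Plg, Apoa2, Ttr and Ide. Saa3, an acute-phase apolipoprotein, had a log2FC of 4.96 (SE 1.76, FDR = 0.0491 by the quasi-likelihood test), but a median of 0.522 CPM in AL mice against a highest value of 22.9 CPM in AL7, without which the log2FC was 2.29 (FDR = 0.0575). Plg, Apoa2 and Ttr are expressed by the liver, and each lost its call with the liver covariate. Plg is itself a liver marker averaged into that covariate, so its lost call follows largely from the fit. The source of these transcripts was not tested. Ide, a protease that degrades small amyloid peptides, has 2 entries, of which 1 was called (log2FC -0.81) and the other was not (0.26). They summed to 94.4, 83.6, 90.2 and 93.0 CPM in LS and 55.5 to 78.3 CPM in AL mice. The log2 ratio of the mean sums, AL to LS, was -0.4, smaller in size than the limit of 0.58.

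Some genes were much lower in all 7 AL hearts of the first run than in LS hearts. Apool, a mitochondrial inner membrane protein gene on the X chromosome (112311334 to 112372755), was at 35.4, 19, 31.4 and 45.2 CPM in LS and 2.51 to 3.21 CPM in AL mice, a log2FC of -3.47 (SE 0.178, FDR = 1.15e-06 by the quasi-likelihood test). Its neighbour Chm, an escort protein of Rab GTPases, fell by 1.59 on the log2 scale, from 45.4 to 75.9 CPM in LS to 16.4 to 23.3 CPM in AL mice. Stbd1, which anchors glycogen to membranes (chromosome 5, 92603041 to 92606579), was at 13.2, 9.62, 7.29 and 8.33 CPM in LS and 0.297 to 0.703 CPM in AL mice, a log2FC of -4.16 (SE 0.214, FDR = 1.15e-06 by the quasi-likelihood test). Its neighbour Scarb2, a lysosomal membrane protein, had a log2FC of -0.75. AL8 and AL9 were at 35.5 and 23.8 CPM for Apool and at 9.47 and 16.4 CPM for Stbd1, around the Ctrl values of their run (28.2 to 32.9 and 11 to 14.2 CPM). The fall of these genes was therefore not seen in the second run.
The same held for Slc6a17, a transporter gene of neurons, and for Rbpj-ps3, a processed pseudogene. Slc6a17 was at 0.284, 4.61, 4.08 and 6.64 CPM in LS and 0.0336 to 0.156 CPM in AL mice, so that LS1 lay near the AL mice, and AL8 and AL9 had 16 and 9.76 CPM. Rbpj-ps3 was at 2.61, 5.41, 3.39 and 4.96 CPM in LS and 0.0469 to 0.151 CPM in AL mice, and AL8 and AL9 had 2.25 and 4.80 CPM. Reads of a processed pseudogene can be split with its parent gene. Pcdhgc4, a protocadherin gene on chromosome 18, was the largest rise by the rule for named genes, from 0.498, 0.190, 0.347 and 0.465 CPM in LS to 6.77 to 20.8 CPM in AL mice, a log2FC of 5.04 (SE 0.390, FDR = 3.85e-05 by the quasi-likelihood test). It was at 17.4 and 5.57 CPM in AL8 and AL9, above the 1.89 to 3.23 CPM of the Ctrl mice there. Protocadherin gamma genes share their last exons, so reads can be divided among them, and 4 other gamma members nearby were called lower.

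**Figure D4:**
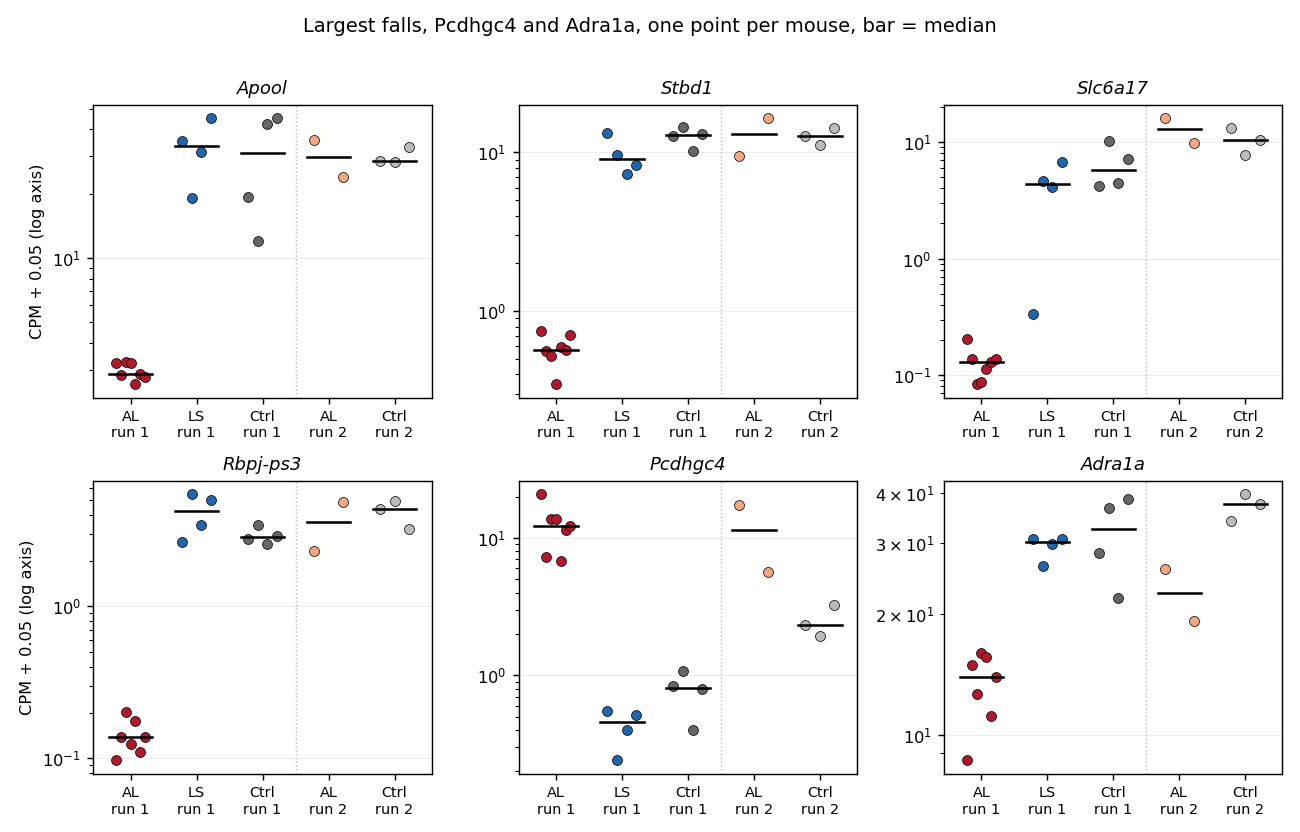
CPM + 0.05 (log axis) of Apool, Stbd1, Slc6a17, Rbpj-ps3, Pcdhgc4 and Adra1a in each mouse, by group and run, with a bar at the group median. The first 4 genes are low in AL1 to AL7 and at the level of Ctrl mice in AL8 and AL9, while Pcdhgc4 is high in all 9 AL mice and Adra1a lies at 8.60 to 15.9 CPM in AL against 26.3 to 30.7 CPM in LS mice of the first run.

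For a few genes the table holds more entries than genes, and their calls depend on how reads were divided. Nnt, the mitochondrial transhydrogenase that makes NADPH, part of which is deleted in C57BL/6J mice, has 2 entries. The entry ENSMUSG00000116207 was at 57.3 to 190 CPM in AL and at 0, 14.2, 0 and 0 CPM in LS mice, and the other, ENSMUSG00000025453, had a log2FC of -1.36 (FDR = 0.01 by the quasi-likelihood test). Their sum was 273 to 457 CPM (median 400) in AL and 514, 849, 1010 and 462 CPM in LS mice, lower in AL with no overlap. The former entry was at 0 in all 4 Ctrl mice of the first run and at 50.3 to 265 CPM in those of the second. Rsc1a1, inside Ddi2 on the same strand, was at 0 CPM in all AL mice but AL4 (1.37 CPM) and at up to 4.84 CPM in LS mice, the lowest of which lay above AL4. Summed with Ddi2 it was at 55.8 to 61.8 CPM in AL and 68.9 to 75.8 CPM in LS mice. Zbtb9 had 0 counts in each AL mouse of the first run and 2.35 to 4.12 CPM in LS mice, and Ctrl mice of that run reached from 0 to 3.78 CPM. Of all tested genes with coordinates 55.1% overlap another gene, as do 49.4% of those called higher and 55.2% of those called lower.

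The 3 genes in which LS and Ctrl mice differed lie on chromosome 6, which also carries the Ig kappa locus, and none of them was called between AL and LS mice. Pyurf, a small mitochondrial protein gene, was at 14.2 to 15.6 CPM in LS, 33.8 to 41.7 CPM in Ctrl and 13.7 to 19.1 CPM in AL mice. Osbpl3, a lipid transfer protein gene, was at 53.7 to 64.6 CPM in LS, 18.2 to 23.6 CPM in Ctrl and 37.6 to 51.2 CPM in AL mice. AL and LS mice were thus on the same side of Ctrl for both. Snx10, a sorting nexin gene, was at 8.17 to 10 CPM in LS, 15.4 to 18.5 CPM in Ctrl and 10.4 to 12.7 CPM in AL mice.

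The second run, which shares no mouse with this comparison, gave AL minus Ctrl values for 1201 of the called genes. Of 857 called higher, 626 (73.0%) had a log2FC above 0, against 53.5% of all tested genes with a value. Of 344 called lower, 255 (74.1%) were lower there, against 46.5% of all. The sign was the same in both runs for 881 of the 1201 called genes. It was also the same for 66.8% of tested genes, called or not. Agreement in direction was thus only somewhat more frequent among called genes. By mouse, 346 of the 857 lay above every Ctrl mouse of that run in AL8 and 491 in AL9, and 202 and 217 of the 344 lay below every one. Above the Ctrl median lay 515 of the 857 in AL8 and 589 in AL9. Counts by mouse were not made over all tested genes, here or for the lists above, so no such share stands beside them. With 2 AL mice, these counts are a description. The lists differed in how far both mice showed the direction, with 5 and 5 of 5 phagocyte markers above the Ctrl median in AL8 and AL9, 10 and 14 of 14 cell cycle genes, 7 and 10 of 10 matrix proteases, 2 and 12 of 12 matrix glycoproteins, and 11 and 13 of 36 interferon-stimulated genes.

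**Figure D5:**
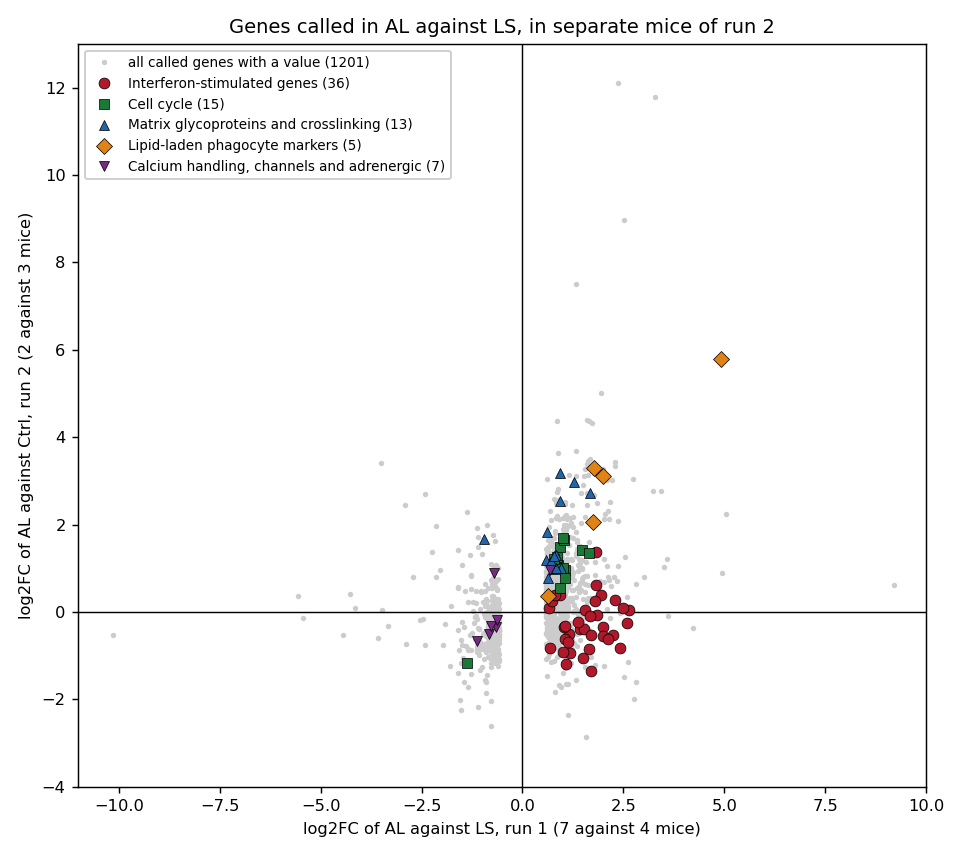
Each point is 1 of 1201 genes called in AL against LS hearts of the first run, with its log2FC there (x axis) and its log2FC of AL minus Ctrl in the second run (y axis), and 5 gene lists are coloured. Of the genes to the right of 0, 626 of 857 lie above 0, while 12 of 36 interferon-stimulated genes do.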

How the data were processed

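Heart apex RNA of 20 mice was sequenced by the authors as stranded, polyadenylated libraries in 2 runs, aligned to GRCm38 with STAR and quantified with Salmon, both named without a version in the submitters' processing notes. The deposited values are expected counts per gene, not normalized for library size, and 14.2% of them are not whole. The authors' ComBat adjustment is not part of the deposited counts and was used here only as an alternative.

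The expected counts were rounded. For the 11 mice of the comparison, genes were kept by edgeR's filterByExpr (version 4.0.16, R 4.3.3, minimum count 10), scaled by TMM and compared by the quasi-likelihood test with no covariate, with Benjamini-Hochberg adjustment. Calls needed an FDR below 0.05 and a log2FC of 0.58 or more in size. CPM values were scaled by TMM over all 20 mice on the genes of this fit. LS and Ctrl were compared in a fit of the 15 mice of the first run. Coordinates come from GENCODE M21 on GRCm38 (98.7% of tested genes matched), and promoters from RefSeq. The mice of a group are separate animals.

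Named genes are the 12 largest rises and falls among calls that averaged 1 CPM or more and did not overlap between the groups, the 5 of lowest FDR in each direction, up to 6 called members of each of 58 gene lists, further members given as not called, and check genes. Counts of list members are of table entries, so a gene with 2 entries counts as 2. Fabp5, Cd46, Oas1a, Ifit3, Ifit3b, Isg15, Postn, Top2a, Mki67, Kcnj5, Clock and the neighbours and copies of named genes were chosen after their values were seen. The members and lists of the report were chosen with earlier results of these data known. On simulated counts for 13863 genes, with 7 against 4 mice, the test recovered 74 of 98 genes changed by a log2FC of 1 and 93 of 97 changed by 2, with 2 false calls. Alternatives were RLE size factors, other filters on low counts, DESeq2 1.42.0, limma 3.58.1 voom, fits of 15 or 20 mice, ComBat-seq (sva 3.50.0), the replicate number as a block, Xist or liver genes as a covariate, other limits on log2FC and each mouse left out. Leaving out LS1 with LS3, and length and GC content as offsets, were added after seeing the data. Some genes are not reported here.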

Additional observations from a re-analysis of the deposited data

Results flagged for a closer look

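In each group of a named gene with 4 to 10 mice, the mouse farthest from the others was tested by Dixon's criterion at the 95% level. It stood apart in 13 of 206 groups looked at, and chance alone gives about 1 in 20.

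Among AL mice, AL7 stood apart for the macrophage genes Adgre1, at 25.3 CPM, and Igf1, at 6.36 CPM. AL1 stood apart for Ppara, the regulator of fatty acid oxidation, at 5.21 CPM, for the Nnt entry ENSMUSG00000025453 at 82.9 CPM and for Chm at 16.4 CPM. AL4 was the only AL mouse of the first run above 0 for Rsc1a1, at 1.37 CPM, and AL2 was at 0 for a Trem2 entry.

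Among LS mice, LS2 stood apart for Acta1, at 90.0 CPM, for the MHC class I gene H2-D1, at 175 CPM, and for the Nnt entry ENSMUSG00000116207, at 14.2 CPM with the other 3 LS mice at 0. LS4 stood apart for Cenpf, at 87.1 CPM. LS1 stood apart for Slc6a17, at 0.284 CPM, and for Ddi2, at 72.4 CPM.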

How the results depend on the processing

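The number of genes called between AL and LS mice was 1553. It was 648 on counts of all 20 mice adjusted by ComBat-seq (54.2% higher in AL, against 73.5%), 4377 without a limit on log2FC (49.9% higher), 682 with an absolute log2FC of at least 1 and 925 without LS1 and LS3 (66.1% higher). Only 2 LS mice enter the last of these. A covariate for liver transcripts gave 1477 calls, 65.0% of them higher and 995 shared with the 1553. All 20 mice with the run as a term gave 1288 calls (65.9% higher). RLE size factors gave 1548, DESeq2 1677, voom 1475, no filter on low counts 1661, and leaving out each mouse 1322 to 1661. Of the 1553 calls, 865 (55.7%) remained without every single mouse in turn.

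Replicate numbers do not pair the mice, whose deviations from the group means had correlations of 0.064, 0.234, 0.0849 and -0.0923 for numbers 1 to 4. With the number as a replicate block 987 genes were called, 67.7% of them higher.

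Leaving out each mouse in turn gave 3 to 8 genes called between LS and Ctrl mice, with 5 without LS1, 5 without Ctrl1 and 8 without Ctrl3. The difference in mitochondrial share was -3.71 to -1.77 percentage points. It passed 0.05 by the exact permutation test without AL1 (-2.9, p = 0.0476), AL2 (-3.05, p = 0.0381), AL7 (-2.76, p = 0.0476) or LS3 (-3.71, p = 0.0167). For the named genes, 4217 values under the alternatives kept the direction and the side of the threshold, 687 kept the direction and lost the call, 1 gained it and 2 reversed, Egr2 at a log2FC of 0.07 with ComBat-seq (FDR = 0.986) and Egr1 at 0.33 without LS4. Leaving out each mouse gave Egr1 a log2FC of -3.31 to 0.33. The causes were not tested. Depth limits statements on genes near 0.05 CPM, and fold changes of Mmp12 and Atp6v0d2 rest on few LS counts.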
